A study of Mus musculus with 4 samples.

Results

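The comparison described here set wild-type bone marrow-derived macrophages loaded with fatty acids for 24 h against the same kind of cells loaded for 12 h. It rests on 2 of the 4 arrays of the study, chosen by genotype and incubation time in their labels, with 1 array a side. Wild type means cells of Hilpdaflox/flox mice, whose Hilpda gene carries loxP sites but was not deleted. The remaining arrays, used only for reference, held cells of HilpdaΔMΦ littermates, called knockout here, after the same times. The sources used here do not give the driver of that deletion. All mice were 8 to 12 weeks old. Marrow cells had been differentiated in medium with 15% L929 conditioned medium, a source of the macrophage growth factor CSF1, and 10% serum. All 4 groups then received 600 µM fatty acids bound to albumin, with 1 part palmitate to 2 parts oleate. RNA of 3 samples was pooled on each array.

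A time difference is the log2 level at 24 h minus that at 12 h, so a value above 0 means a higher level at 24 h. There was no replicate, so no error between cultures could be given and no difference was tested. Genes were counted when they differed by at least 1.5-fold, which is 0.58 on the log2 scale. No unloaded cells were analysed here, so fatty acid loading time and time in culture cannot be told apart. The labels do not say whether both cultures were harvested at the same hour of the day. In a bulk culture, fewer cells of a type and less RNA per cell cannot be told apart either.

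Macrophages take up fatty acids, activate them as acyl-CoA, and burn them or store them as triglyceride in lipid droplets. Fatty acids and sterols are sensed by transcription factors: PPARs drive genes of fatty acid use, LXRs drive cholesterol export, and SREBP2 drives cholesterol synthesis when sterol in the endoplasmic reticulum is low. Marrow macrophages grown in CSF1 also go on maturing and dividing in culture, and carry receptors for microbes, antibodies and dying cells.

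Of 22180 genes named by a single symbol, 13354 were kept, those with a mean over the 4 arrays that reached the 40th percentile, 2.44 on the log2 scale. The macrophage markers set for the check, 9 of which were on the array, all lay above that level on both wild-type arrays, from 8.21 to 12.8. The granulocyte and mast cell markers did not: 6 of 8 (S100a9, Mpo, Elane, Ly6g, Mcpt8, Cpa3) were below it on both arrays, and 0 of 8 were above it on both. Lymphoid and dendritic cell markers were mostly dim, with 5 of 10 below that level on both arrays. Stromal cell markers were present: of the 8 set for the check, 6 were above that level on both arrays and 5 had a wild-type time difference above 0. Their summed linear signal was 524 at 12 h and 875 at 24 h in wild type, against 371 and 499 in knockout. Over the 11 kept genes of the longer stromal list described below, it was 1062 and 1979 in wild type, against 768 and 1164 in knockout. The wild-type array at 24 h stood apart from the others. It lay at least 1.5-fold above or below each of the other 3 arrays for 294 genes, against 53 for wild type at 12 h, 72 for knockout at 12 h and 81 for knockout at 24 h. With 1 array a group, that array and the condition it carries cannot be told apart.

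At 24 h 631 genes (4.73%) were higher and 535 (4.01%) lower than at 12 h in wild type by 1.5-fold or more. Counting differences of any size, 6559 genes (49.1%) were higher. The median difference over all genes kept was -0.0050, the SD was 0.361, and the central 95% of genes lay between -0.71 and 0.77. Among the 9089 genes at or above the 60th percentile of level, 346 (3.81%) were higher and 352 (3.87%) lower. With the further condition that both wild-type arrays reach the level filter, a choice made after seeing the data, 543 genes were higher and 478 lower. Over 1409 receptor genes of smell (olfactory, vomeronasal, trace amine), taken without the level filter as a measure of the spread near background signal, the SD of the same difference was 0.288 and 5.04% passed 1.5-fold. Of the 89 that passed the level filter, 16, or 17.98%, passed the fold (6 higher, 10 lower), against 8.73% of all kept genes in either direction.

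**Figure D1:**
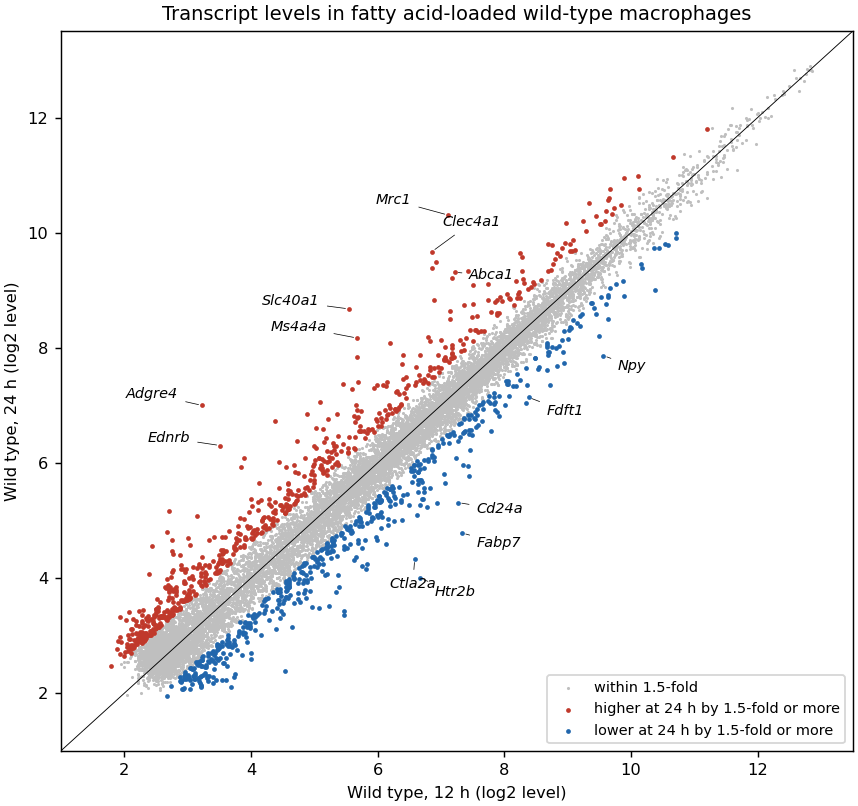
Log2 level in wild-type macrophages at 12 h (x axis) and at 24 h (y axis), 1 point a gene over the 13354 genes kept, with a line at equal levels. Red points are the 631 genes higher and blue points the 535 genes lower at 24 h by 1.5-fold or more.

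Adgre4, an adhesion receptor of the F4/80 family, was the gene furthest above its 12 h level, with a log2 level of 3.23 at 12 h and 6.999 at 24 h in wild type, and 2.61 and 4.08 in knockout. The wild-type array at 24 h was far above the other 3, and the wild-type time difference of 3.77, or 13.7-fold, was the largest of the genes named here. Mrc1, the mannose receptor CD206, stood at 7.11 and 10.31 in wild type and at 7.37 and 9.76 in knockout. Both 24 h arrays were above both 12 h arrays, and the difference in wild type was 3.19, a 9.14-fold higher level. Ferroportin, encoded by Slc40a1, is the iron exporter of the cell: its level was 5.55 at 12 h and 8.68 at 24 h, against 5.87 and 8.46 in knockout, an 8.74-fold difference in wild type. The order of the arrays was as for Mrc1.

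Clec4a1, a C-type lectin, measured 6.86 and 9.67 in wild type and 6.98 and 8.30 in knockout, a wild-type difference of 2.81. Ednrb, the endothelin B receptor, measured 3.51 and 6.30 against 4.10 and 6.002, a difference of 2.79. For both genes the 24 h arrays exceeded the 12 h arrays in either genotype, and wild type at 24 h was the highest of the 4. Slc9a9, a sodium-proton exchanger of endosomes, was higher by 2.54 in wild type and 1.95 in knockout. Ms4a4a, a membrane protein of the MS4A family, was higher by 2.49 and 0.78. Nxpe5, Syn1 and Cd300e, the last an activating receptor of myeloid cells, were higher by 2.35, 2.17 and 1.98 in wild type and by 1.69, 1.43 and 1.23 in knockout. Man1a, a mannosidase that trims N-glycans in the Golgi, had differences of 1.91 and 1.52. Ighm, the immunoglobulin mu chain, was higher by 2.57 on the brightest of its 7 probe sets, but by 0.53 over their mean. Its probe sets thus disagree in size.

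Among the genes furthest below the 12 h level, Htr2b, a serotonin receptor, measured 6.68 at 12 h and 3.995 at 24 h in wild type, and 6.81 and 5.29 in knockout. Wild type at 24 h was the lowest of the 4 arrays, 6.41-fold below wild type at 12 h, a difference of -2.68. Fabp7, a fatty acid-binding protein best known from brain, measured 7.34 and 4.78 in wild type and 7.52 and 5.51 in knockout, a wild-type difference of -2.55. The 24 h array was the lower one in both genotypes. Ctla2a, related to the propeptides of cysteine proteases, differed by -2.25 in wild type and -1.83 in knockout. Cd24a, a glycosylated surface protein of immature cells, differed by -1.96 and -1.21. Npy, a secreted neuropeptide, went from 9.57 to 7.86 between the wild-type arrays, a difference of -1.70, with -0.85 in knockout. Outside the 15 lowest but lower in both genotypes, F11r, the junctional adhesion molecule A, differed by -1.54 and -1.94, and Aspm, a spindle protein, by -1.32 and -1.47. The remaining ones of the 15 lowest lay between -1.72 and -1.55: Tmeff1, Id3, Kdr, P2ry1, Cry1, Slc22a4, Fat3, Plekhh2, Prss46 and Efr3b. Tmeff1 was lower by 1.72 on its brighter probe set, and its mean over 2 probe sets differed by -0.83.

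**Figure D2:**
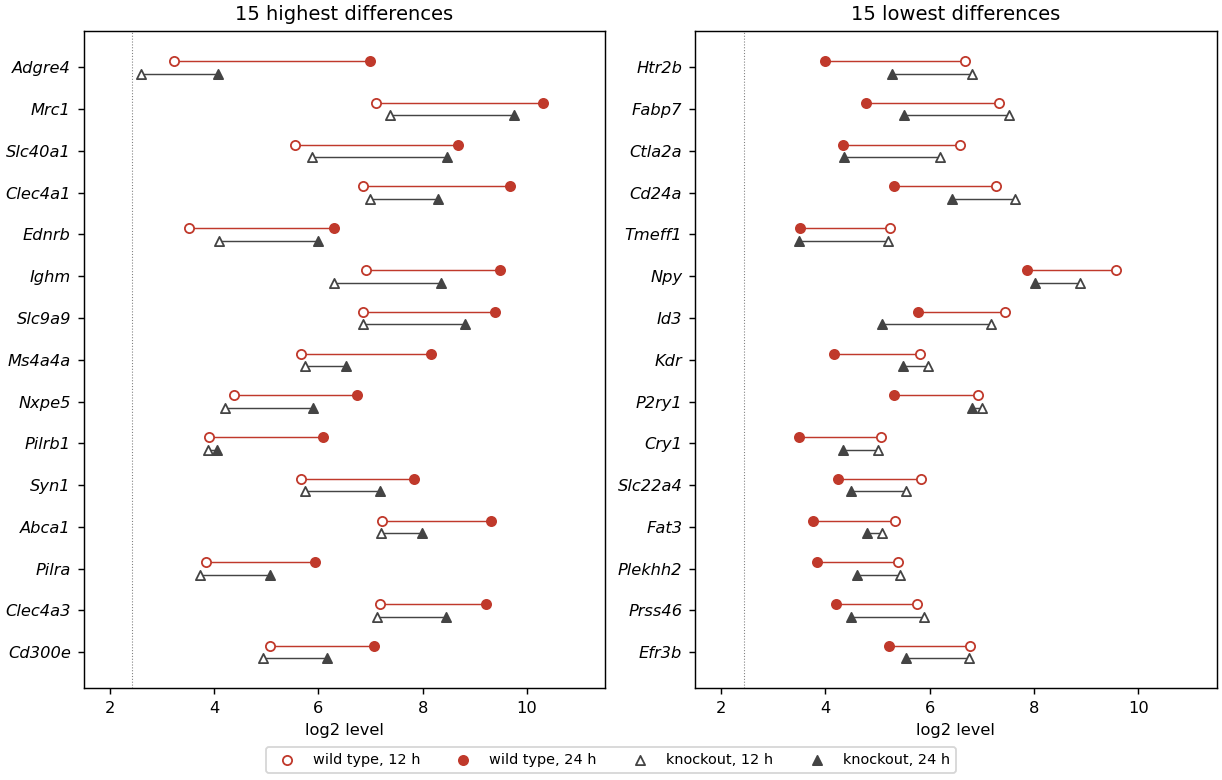
Log2 level on each of the 4 arrays for the 15 highest and the 15 lowest wild-type time differences among genes at or above the 60th percentile of level, with lines joining the arrays of a genotype and a dotted line at the level filter of 2.44. Points are single pooled arrays with no error, and the largest span is that of Adgre4, from 3.23 to 6.999 in wild type. Adgre4 and Pilrb1 reached that percentile of level only through the wild-type array at 24 h, and Tmeff1 only with the wild-type array at 12 h.

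The next paragraphs go through gene lists by role, each as the number of its kept members past 1.5-fold and the median of its wild-type time differences, to be read beside the median of -0.0050 over all genes and the 4.73% of them higher and 4.01% lower. A count of 1 or 2 members past the fold is not read as a result about a list. Some paragraphs also count members by their highest array or by the sign of the contrast between genotypes. For these counts the share over all genes kept was not worked out, so they have no background beside them. The lists with the highest medians were the MS4A and TMEM176 membrane proteins, the C-type lectins, MHC class II presentation and the stromal markers. Those with the lowest were cholesterol synthesis, mitosis and VEGF and TGF-beta family signalling, leaving aside the granulocyte and mast cell list, of which 1 gene was kept.

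**Figure D3:**
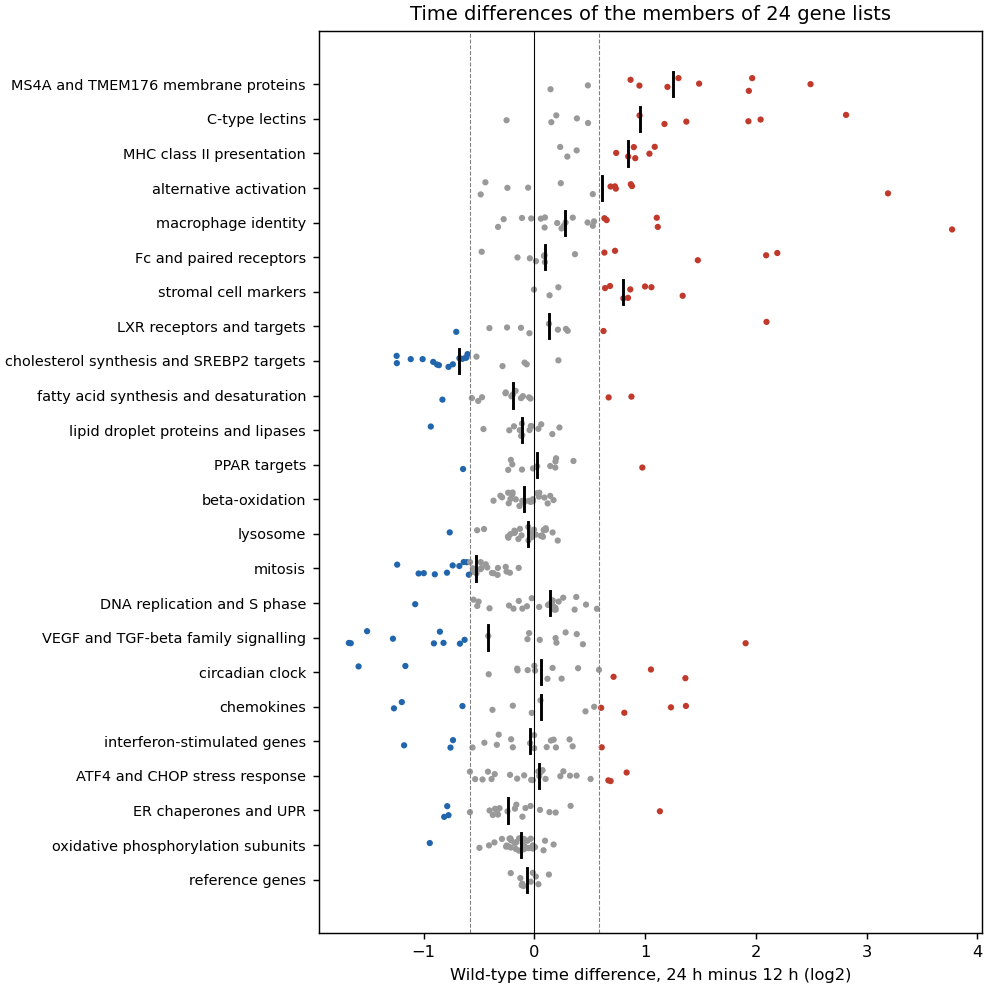
Wild-type time difference (log2, 24 h minus 12 h) of every kept member of 24 of the gene lists, 1 row a list, with the list median marked and lines at 0 and at 1.5-fold. The medians run from -0.68 for cholesterol synthesis to 1.25 for the MS4A and TMEM176 membrane proteins.

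MS4A and TMEM176 proteins pass the membrane several times and are found on macrophages and related myeloid cells. Of 12 on the array 10 were kept, 8 were higher by 1.5-fold or more at 24 h, 0 were lower, and the median was 1.25. Ms4a6b measured 4.88 and 6.85 in wild type and 4.54 and 5.38 in knockout, a wild-type difference of 1.97. Tmem176b measured 6.89 and 8.83 against 6.55 and 7.35, a difference of 1.94. Its neighbour in the family Tmem176a measured 5.36 and 6.84 against 5.14 and 5.04, so that it was higher by 1.49 in wild type and lower by 0.10 in knockout. For these genes wild type at 24 h was above the other 3 arrays, as it was for 10 of the 10 members kept. Ms4a6c, Ms4a14 and Ms4a7 were higher by 1.20, 0.95 and 0.87, and the dimmer Ms4a4c measured 2.68 and 3.98. In knockout 3 of the 10 passed 1.5-fold, with a median of 0.40.

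C-type lectins such as those of the Dectin gene clusters often bind sugars of microbes and damaged cells. Here 6 of the 11 kept were higher past 1.5-fold in wild type and 6 in knockout, 0 were lower in either, and the medians were 0.95 and 0.59. Clec4n, which encodes Dectin-2, measured 3.15 and 5.09 in wild type and 2.61 and 4.17 in knockout, a difference of 1.93. Clec4a3 was higher by 2.04, Clec4a2 by 1.37, Clec4b1 by 1.17 and Clec2d by 0.95. Clec7a, encoding Dectin-1, had a difference of 0.48 and Clec4e, encoding Mincle, 0.20, both within 1.5-fold.

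The paired receptors Pilra and Pilrb1, an inhibitory and an activating partner, were both higher at 24 h. Pilra measured 3.84 and 5.93 in wild type and 3.73 and 5.08 in knockout, a wild-type difference of 2.09. Pilrb1 measured 3.90 and 6.09 against 3.89 and 4.06, so the difference was 2.19 in wild type and 0.17 in knockout. Fcgr4, an activating receptor for antibody complexes, was higher by 1.48 in wild type and 1.35 in knockout, and Fcgr3 by 0.63 in wild type. In all, 5 of 13 Fc and paired receptors were higher past the fold and 0 lower, while the median was 0.10. The 5 include the dim Pilrb2 (0.73), whose mean reached the level filter only with the wild-type array at 24 h. Among 18 Toll-like and scavenger receptors, 4 were higher and 1 lower. Tlr9, the sensor of unmethylated DNA, measured 7.15 and 8.50, a difference of 1.36 with 0.70 in knockout, and Tlr1 and Tlr5 were higher by 0.76 and 0.66. Olr1, a lectin-like scavenger receptor, differed by -1.13. Cd36, the main fatty acid translocase of macrophages, differed by 0.19.

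Of 20 macrophage identity genes 5 were higher past 1.5-fold and 0 lower, with a median of 0.27, and 16 of the 20 had a difference above 0. Maf, a transcription factor of resident macrophages, measured 8.69 and 9.80 in wild type and 8.76 and 9.23 in knockout, a difference of 1.11. Aif1, encoding IBA1, was higher by 1.11 in wild type and 0.95 in knockout. Mertk, a receptor for dying cells, was higher by 0.65, and Adgre1, encoding F4/80, differed by 0.54. Csf1r, the receptor of CSF1, differed by 0.26, and Cd68 by -0.11. Among 12 alternative activation genes, 6 were higher and 0 lower, and the median was 0.61. The members past the fold were Mrc1 and the scavenger receptors Stab1 (0.74) and Cd163 (0.87), the lectin Clec10a (0.73), the transglutaminase F13a1 (0.88) and the interleukin 4 receptor chain Il4ra (0.69). Arg1 differed by -0.24, and Retnla and Chil3, classical targets of interleukin 4, did not reach the level filter. The median of this list was 0.29 with no level filter and 0.38 with the filter at the 60th percentile.

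MHC class II molecules present peptides to CD4 T cells, with Ciita as the master activator of their genes and H2-DMa and H2-DMb1 as loading chaperones. Of 12 genes on the array 9 were kept, 6 were higher past 1.5-fold at 24 h in wild type, 0 were lower, and the median was 0.85. In knockout 0 of the 9 were higher past 1.5-fold and 1, the costimulator Cd40, was lower, with a median of 0.06. The beta chain H2-Ab1 measured 7.49 at 12 h and 8.53 at 24 h in wild type, and 7.61 and 7.66 in knockout. Only wild type at 24 h stood away from the other 3 arrays, with a difference of 1.04 against 0.05. H2-Eb1 measured 5.37 and 6.46 against 5.36 and 5.95, and H2-Aa measured 6.02 and 6.87 against 6.16 and 5.95. Ciita measured 3.74 and 4.48 against 3.60 and 3.62, differences of 0.74 and 0.01. Wild type at 24 h was the highest array for 8 of the 9 genes, and the wild-type time difference exceeded the knockout one for 9 of 9. That contrast between the genotypes was not tested, and it rests on the array that stands apart.

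The letters CCAAT, the core of the Y box found next to the X box in class II promoters, were looked for on both strands in the 250 bases before each gene's start site. Promoters are shown because the members of this list lie on the same side of 0. Of 5 members with a promoter in the RefSeq table (build GRCm38.p6), 4 held CCAAT on either strand, against 33.8% of all 32851 promoters and 39.6% of the genes kept. The capitals mark the match, which reads ATTGG where it lies on the opposite strand. H2-Eb1 lies on the plus strand (chr17:34305617-34305866), with matches at -59 and -35 from the start site. H2-Aa lies on the minus strand (chr17:34287824-34288073), with its match at -48.
H2-Eb1: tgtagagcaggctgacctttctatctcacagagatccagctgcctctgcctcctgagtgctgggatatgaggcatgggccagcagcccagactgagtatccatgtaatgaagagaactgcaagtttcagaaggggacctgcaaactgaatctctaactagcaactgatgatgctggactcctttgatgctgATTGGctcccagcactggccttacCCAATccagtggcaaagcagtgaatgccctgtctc
H2-Aa: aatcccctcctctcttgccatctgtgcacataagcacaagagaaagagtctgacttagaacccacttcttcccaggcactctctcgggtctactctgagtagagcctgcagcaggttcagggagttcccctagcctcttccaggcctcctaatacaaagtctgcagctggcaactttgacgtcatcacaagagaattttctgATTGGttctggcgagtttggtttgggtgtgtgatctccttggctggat
A match describes the letters of the window and says nothing of binding.

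Cholesterol synthesis gave the lowest median of the lists of more than 1 gene. All 19 genes on the array were kept, 14 were lower past 1.5-fold at 24 h in wild type, 0 were higher, and the median was -0.68. In knockout 4 were lower, with a median of -0.43. Hmgcs1, which makes HMG-CoA, measured 8.93 at 12 h and 7.92 at 24 h in wild type, and 8.36 and 7.86 in knockout. Fdft1, squalene synthase, measured 8.38 and 7.14 against 7.63 and 7.04. Sqle, squalene epoxidase, measured 7.92 and 6.81 against 7.35 and 6.87. In each of these genes the wild-type array at 12 h was the highest of the 4 and the knockout array at 12 h the next. The wild-type differences were -1.01, -1.24 and -1.12. The same array was the highest for 18 of the 19 members, Tm7sf2 being the exception with a difference of 0.22.

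Other members of the pathway differed to unequal extents. Cyp51, the lanosterol demethylase, differed by -1.24 in wild type and -0.65 in knockout, Msmo1, the sterol methyl oxidase, by -0.86 and -0.13, and Hsd17b7 by -0.88 and -0.02. Fdps, Sc5d and Dhcr7 differed by -0.91, -0.77 and -0.74. Stard4, a sterol carrier, and Insig1, which holds SREBP in the endoplasmic reticulum, differed by -0.68 and -0.61. Mvd, Pmvk and Nsdhl lay between -0.65 and -0.60. Srebf2 itself, the gene of SREBP2, differed by -0.29, and Mvk and Ebp by -0.09 and -0.07.

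The promoter windows of this list were searched for the sterol regulatory element letters TCACNCCAC and for CCAAT, the site of the factor NF-Y, on both strands. No letters of the matches were shared between the motifs. Of the 15 members in the RefSeq table only Hmgcs1 held TCACNCCAC, against 1.05% of all promoters and 1.23% of the genes kept. CCAAT was held by 15 of 15, against 33.8% of all promoters and 39.6% of the genes kept. Hmgcs1 (chr13:119690101-119690350, plus strand) and Msmo1 (chr8:64733579-64733828, minus strand) are shown as examples of a member with the element and of one without it. The capitals mark TCACCCCAC, at -137 from the start site of Hmgcs1, and CCAAT or ATTGG, at -237, -176 and -45 there and at -160, -96 and -55 in Msmo1.
Hmgcs1: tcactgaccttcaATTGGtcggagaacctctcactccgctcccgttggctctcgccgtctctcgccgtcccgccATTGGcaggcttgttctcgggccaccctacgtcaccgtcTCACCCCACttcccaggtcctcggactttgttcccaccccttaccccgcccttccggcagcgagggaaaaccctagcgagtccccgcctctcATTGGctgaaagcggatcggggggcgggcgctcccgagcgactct
Msmo1: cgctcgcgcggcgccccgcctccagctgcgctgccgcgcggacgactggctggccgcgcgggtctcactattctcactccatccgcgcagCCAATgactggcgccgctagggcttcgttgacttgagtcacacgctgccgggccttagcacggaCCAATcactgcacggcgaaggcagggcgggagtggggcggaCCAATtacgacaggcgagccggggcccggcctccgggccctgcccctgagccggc
The absence of the letters in a window says only that they are not in these 250 bases.

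Sterol export genes went the other way from synthesis at their main member. Abca1, the transporter that loads cholesterol onto apolipoprotein A-I and an LXR target, measured 7.22 at 12 h and 9.31 at 24 h in wild type, and 7.19 and 7.99 in knockout. Wild type at 24 h was above the other 3 arrays, 4.28-fold above wild type at 12 h, a difference of 2.10. Abcg1, its partner for export to HDL, measured 9.06 and 9.69, a difference of 0.62 with 0.47 in knockout. Smpdl3a differed by -0.70, and Nr1h3, encoding LXR alpha, by -0.41. The remaining LXR targets, among them Apoe at 0.29, lay within 1.5-fold, and the list median was 0.13.

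Fatty acid synthesis and desaturation had a median of -0.19, with 13 of 15 genes below 0. Fasn, the fatty acid synthase, differed by -0.47, Srebf1 by -0.56 and the elongase Elovl7 by -0.83. Scd1, the desaturase that makes oleate from stearate, measured 5.15 and 6.03 in wild type and 4.47 and 5.08 in knockout, higher by 0.88 and 0.60. Fads3 was higher by 0.67. The list thus held 2 genes higher and 1 lower past the fold.

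Most listed genes of the lipid droplet and of fatty acid use lay within 1.5-fold between the times. Of 15 lipid droplet proteins and lipases, 1 was lower past 1.5-fold, 0 were higher, and the median was -0.11. The exception was Abhd5, the coactivator of adipose triglyceride lipase, which measured 7.85 and 6.92 in wild type and 7.96 and 7.52 in knockout, a wild-type difference of -0.93. Wild type at 24 h was the lowest of the 4 arrays. Hilpda, the lipase inhibitor deleted in the knockout, measured 5.93 and 5.47 in wild type and 5.41 and 5.27 in knockout, a wild-type difference of -0.46. Its knockout levels were not far below, and the sources used here do not say whether its probe set lies within the deleted part. Plin2, the main coat protein of macrophage droplets, measured 11.93 and 11.82, and Pnpla2, the lipase itself, 9.19 and 9.16. Their differences were -0.11 and -0.03.

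Triglyceride and sterol ester synthesis had 0 of 12 genes past the fold and a median of 0.07, and beta-oxidation 0 of 24 and -0.10. Cpt1a, the gate of fatty acids into mitochondria, differed by -0.20. Among 13 PPAR targets 1 was higher and 1 lower past the fold, with a median of 0.03. Pdk4, a brake on glucose oxidation, measured 5.32 and 6.29 in wild type and 4.49 and 6.13 in knockout, higher by 0.97 and 1.64. Angptl4, an inhibitor of lipoprotein lipase, measured 8.78 and 9.13, a difference of 0.35. Fabp4, a fatty acid-binding protein, was listed under uptake as well as PPAR and measured 8.19 and 7.55 in wild type and 8.70 and 9.03 in knockout, a difference of -0.64 against 0.33. Fabp5 differed by -0.53, and Acsf2, an acyl-CoA synthetase, was higher by 0.80 in wild type and 0.84 in knockout. Of 12 genes of fatty acid uptake, binding and activation, 1 was higher and 1 lower past the fold, with a median of -0.11. Fabp7, at -2.55, was not in these lists. Of 14 lipid-associated macrophage markers 2 were lower, Fabp4 and the tetraspanin Cd9 (-0.71), and Trem2, Gpnmb and Lpl differed by 0.14, -0.20 and -0.04.

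Mitosis genes were lower at 24 h without exception in sign. All 27 on the array were kept, 10 were lower past 1.5-fold in wild type, 0 were higher, 27 of 27 differences were below 0, and the median was -0.52. Knockout had 16 lower and a median of -0.76. Ccnb2, cyclin B2, measured 7.46 at 12 h and 6.22 at 24 h in wild type, and 7.48 and 6.03 in knockout. Cdc20, an activator of the anaphase-promoting complex, measured 6.28 and 5.28 against 6.17 and 5.27. Plk1, polo-like kinase, measured 7.47 and 6.57 against 7.38 and 5.89. For each, both 24 h arrays were below both 12 h arrays. Nusap1, Ube2c and Cenpf differed by -1.04, -0.79 and -0.74 in wild type, and Mki67, the gene of the Ki-67 antigen, by -0.56.

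DNA replication and S phase genes did not share that pattern: 1 of 27 was lower, 0 were higher, and the median was 0.14. E2f2, a transcription factor of the S phase, was the member past the fold, at -1.08. Pcna, the clamp of the replication polymerase, differed by -0.50, Mcm5 and Mcm4 of the replicative helicase by 0.36 and 0.38, and thymidine kinase Tk1 by 0.57.

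The CHR letters TTTGAA and CCAAT, elements known from promoters of genes expressed in G2 and mitosis, were counted in the windows of 22 mitosis genes on both strands. CCAAT was found in 20 of 22, against 33.8% of all promoters and 39.6% of the genes kept. TTTGAA was found in 8 of 22, against 15.99% of all promoters and 12.8% of the genes kept. Ccnb2 (chr9:70421555-70421804, minus strand) and Cdc20 (chr4:118437344-118437593, minus strand) hold both and are shown with the matches in capitals. TTTGAA lies at -167 from the start site in Ccnb2 and at -18 in Cdc20, and CCAAT at -87, -54 and -21 in Ccnb2 and at -53 and -8 in Cdc20, with no overlap between the motifs. CCAAT was also frequent in the class II list, whose members were higher at 24 h.
Ccnb2: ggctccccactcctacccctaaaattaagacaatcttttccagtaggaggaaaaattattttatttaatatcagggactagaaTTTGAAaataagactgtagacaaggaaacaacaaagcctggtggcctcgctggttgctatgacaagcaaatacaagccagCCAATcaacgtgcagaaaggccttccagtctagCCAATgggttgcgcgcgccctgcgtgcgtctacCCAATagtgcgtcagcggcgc
Cdc20: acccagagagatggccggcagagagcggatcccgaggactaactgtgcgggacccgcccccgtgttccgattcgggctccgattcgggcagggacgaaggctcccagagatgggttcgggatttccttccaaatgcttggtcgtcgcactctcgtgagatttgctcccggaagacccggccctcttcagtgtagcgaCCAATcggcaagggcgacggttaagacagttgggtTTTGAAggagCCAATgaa
These matches are a description of the sequence, in lists chosen with results known.

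In VEGF and TGF-beta family signalling, 9 of 19 genes were lower past 1.5-fold, 1 was higher, and the median was -0.42 in wild type and in knockout. Id3, an inhibitor of basic helix-loop-helix factors and a target of BMP signalling, measured 7.44 at 12 h and 5.77 at 24 h in wild type, and 7.18 and 5.08 in knockout. The inhibitory SMADs Smad6 and Smad7, which are feedback targets of the same pathway, differed by -1.28 and -0.91. Id2, Skil and the receptor Tgfbr1 differed by -0.82, -0.85 and -0.63. The ligand Bmp2 was the member above the fold: it measured 5.46 and 7.37 in wild type and 6.01 and 7.23 in knockout, higher by 1.91 and 1.22. The VEGF receptors Kdr and Flt1 differed by -1.66 and -1.51, and the ligand Vegfc by -0.67. For Kdr the knockout difference was -0.48, for Flt1 it was -1.41. Vegfa, a ligand of both, measured 8.19 and 8.63, a difference of 0.44. At the 60th percentile of level the median of the list was -0.055, since Flt1, Smad6 and other dim members were left out, and with no level filter it was -0.24.

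Among 12 iron genes 3 were higher and 0 lower past 1.5-fold. Besides Slc40a1 these were Cp, ceruloplasmin, the ferroxidase that works with ferroportin, and Tfrc, the transferrin receptor. Cp measured 3.01 and 4.70 in wild type and 2.86 and 2.96 in knockout, a difference of 1.69 against 0.10, with wild type at 24 h alone high. Tfrc was higher by 0.78 in wild type and 0.67 in knockout. Hmox1, which frees iron from haem, measured 9.78 and 10.28, a difference of 0.50, and the ferritin chain Fth1 differed by less than 0.01.

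The circadian clock is a feedback loop in which CLOCK and BMAL1 drive their own repressors through E-boxes. Of 16 clock genes 3 were higher and 2 lower past the fold, with a median of 0.06. The repressor Cry1 measured 5.07 at 12 h and 3.49 at 24 h in wild type, and 5.01 and 4.33 in knockout, differences of -1.59 and -0.67. Bhlhe40 differed by -1.16 in wild type. The output factor Dbp measured 5.94 and 7.31 against 6.31 and 7.04, higher by 1.36 and 0.73. Nr1d1, encoding the repressor REV-ERB alpha, measured 5.005 and 6.06 against 4.93 and 6.01, higher by 1.05 and 1.08, and Nr1d2 was higher by 0.72. These genes lay on the same side in both genotypes. Arntl, the gene of BMAL1, differed by -0.15, Clock by 0.01 and Per1 by 0.16.
The E-box letters CACGTG were found in 5 of 15 clock promoters (Bhlhe41, Ciart, Cry1, Per1, Tef), against 6.02% of all promoters and 9.74% of the genes kept. Cry1 (chr10:85185055-85185304, minus strand) is shown because it is the lowest clock gene, with the E-box in capitals at -60 from its start site.
Cry1: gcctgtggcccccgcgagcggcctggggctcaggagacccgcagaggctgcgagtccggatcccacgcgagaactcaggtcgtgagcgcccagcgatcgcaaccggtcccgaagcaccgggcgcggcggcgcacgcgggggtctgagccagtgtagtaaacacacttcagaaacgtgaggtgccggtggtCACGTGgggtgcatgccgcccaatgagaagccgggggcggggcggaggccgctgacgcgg

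Inflammatory genes had no common direction. Of 16 cytokines and mediators kept, of 23 on the array, 4 were higher past the fold and 0 lower, with a median of -0.02, 0.15 with no level filter and 0.088 at the 60th percentile. Il1b, interleukin 1 beta, measured 2.39 at 12 h and 4.07 at 24 h in wild type, and 2.32 and 2.59 in knockout. It was near the level filter on all arrays but wild type at 24 h, where it was higher by 1.68. Its mean reached the filter only with that array. Nlrp3, the inflammasome sensor, was higher by 0.83 and Csf1, the macrophage growth factor, by 0.78. Socs3 was higher by 0.90 on its brightest probe set and by 0.48 over the mean of its probe sets. Tnf measured 7.90 and 7.35, a difference of -0.55, and Il6, Il1a and Nos2 did not reach the level filter.

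Of 13 chemokines 4 were higher and 3 lower. Ccl6 measured 7.37 and 8.74 in wild type and 7.72 and 8.69 in knockout, higher by 1.37 and 0.97, and Cxcl12, Ccl2 and Ccl9 were higher by 1.23, 0.81 and 0.60. Pf4, platelet factor 4, measured 6.82 and 5.56 against 7.07 and 5.26, and Cxcl14 measured 8.94 and 7.74 against 8.99 and 7.68. Their wild-type differences were -1.27 and -1.20, and Ccl5 was lower by 0.65. Apart from Ccl5, at -0.07, these genes had differences past 1.5-fold in knockout too. Among chemokine and purinergic receptors, 3 of 17 were higher (Ccr3 1.55, P2ry14 0.88, P2ry13 0.75) and 2 lower. The lower ones were P2ry1, an ADP receptor, at 6.94 and 5.31 in wild type and 6.999 and 6.81 in knockout, and Gpr84, a receptor for medium-chain fatty acids, at 6.63 and 5.10 against 6.204 and 4.21. P2ry1 thus differed by -1.63 against -0.19, and Gpr84 by -1.53 against -2.00.

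Interferon-stimulated genes had a median of -0.04, with 1 of 19 higher and 3 lower. Irf7, a master factor of the type I response, measured 6.74 and 5.56 in wild type and 6.87 and 5.25 in knockout, a difference of -1.18. Bst2 and Oas3 differed by -0.76 and -0.73 and Oasl1 by 0.61. Of the guanylate-binding proteins, GTPases that act on intracellular microbes, 4 of 9 were kept and 3 were higher, with a median of 0.67, which was 0.039 over all 9 with no level filter. Gbp7 measured 2.76 and 4.65 in wild type and 2.86 and 2.45 in knockout, and Gbp9 measured 5.86 and 6.58 against 5.42 and 6.48. Gbp7 was high on the wild-type array at 24 h alone, with a difference of 1.90, and Gbp9 on both 24 h arrays.

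The share of members past the fold differed between the stress pathway lists. Endoplasmic reticulum chaperones had a median of -0.24, with 16 of 21 below 0, 3 (14.3%) lower past the fold and 1 higher. Pdia6, Sdf2l1 and Hyou1, which fold proteins in the endoplasmic reticulum, differed by -0.81, -0.79 and -0.77. Herpud1, of the degradation machinery there, measured 6.998 and 8.13 in wild type and 7.16 and 7.81 in knockout, higher by 1.13 and 0.65. Hspa5, the chaperone BiP, differed by -0.37. In the ATF4 and CHOP list 3 of 24, or 12.5%, were higher (Sesn2 0.83, Ddit4 0.69, Phgdh 0.67) and 0 lower, with a median of 0.04. Atf4 itself differed by -0.22 and Ddit3, encoding CHOP, by -0.39. Neither the 17 NRF2 and glutathione genes nor the 12 heat shock and metallothionein genes held a member past 1.5-fold.

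Stromal cell markers were among the highest lists: of 13 on the array 11 were kept, 8 were higher past 1.5-fold at 24 h in wild type, 0 were lower, and the median was 0.80. In knockout 5 were higher, with a median of 0.51. Col1a1, a chain of collagen I, measured 8.07 and 8.87 in wild type and 7.49 and 8.00 in knockout. Postn, periostin, measured 6.38 and 7.72 against 5.76 and 6.90, and Fn1, fibronectin, 8.28 and 9.33 against 7.91 and 8.68. Wild type at 24 h was the highest array for 10 of the 11. Pdgfra, a receptor of fibroblasts, was higher by 1.00, while Pdgfrb and Dcn differed by less than 0.01 and by 0.14. Lum and Thy1 did not reach the level filter. Mmp2 and Mmp14, matrix proteases that stromal cells also make, were higher by 0.91 and 0.74, Cxcl12, a stromal chemokine, by 1.23, and Ogn, a matrix proteoglycan, by 2.14. The part of the stromal signal in these and other differences was not tested. Without the stromal marker genes, a count added after seeing the data, 623 genes were higher and 535 lower. That count leaves out only the markers themselves, so it cannot show how much stromal RNA adds to other genes.

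**Figure D4:**
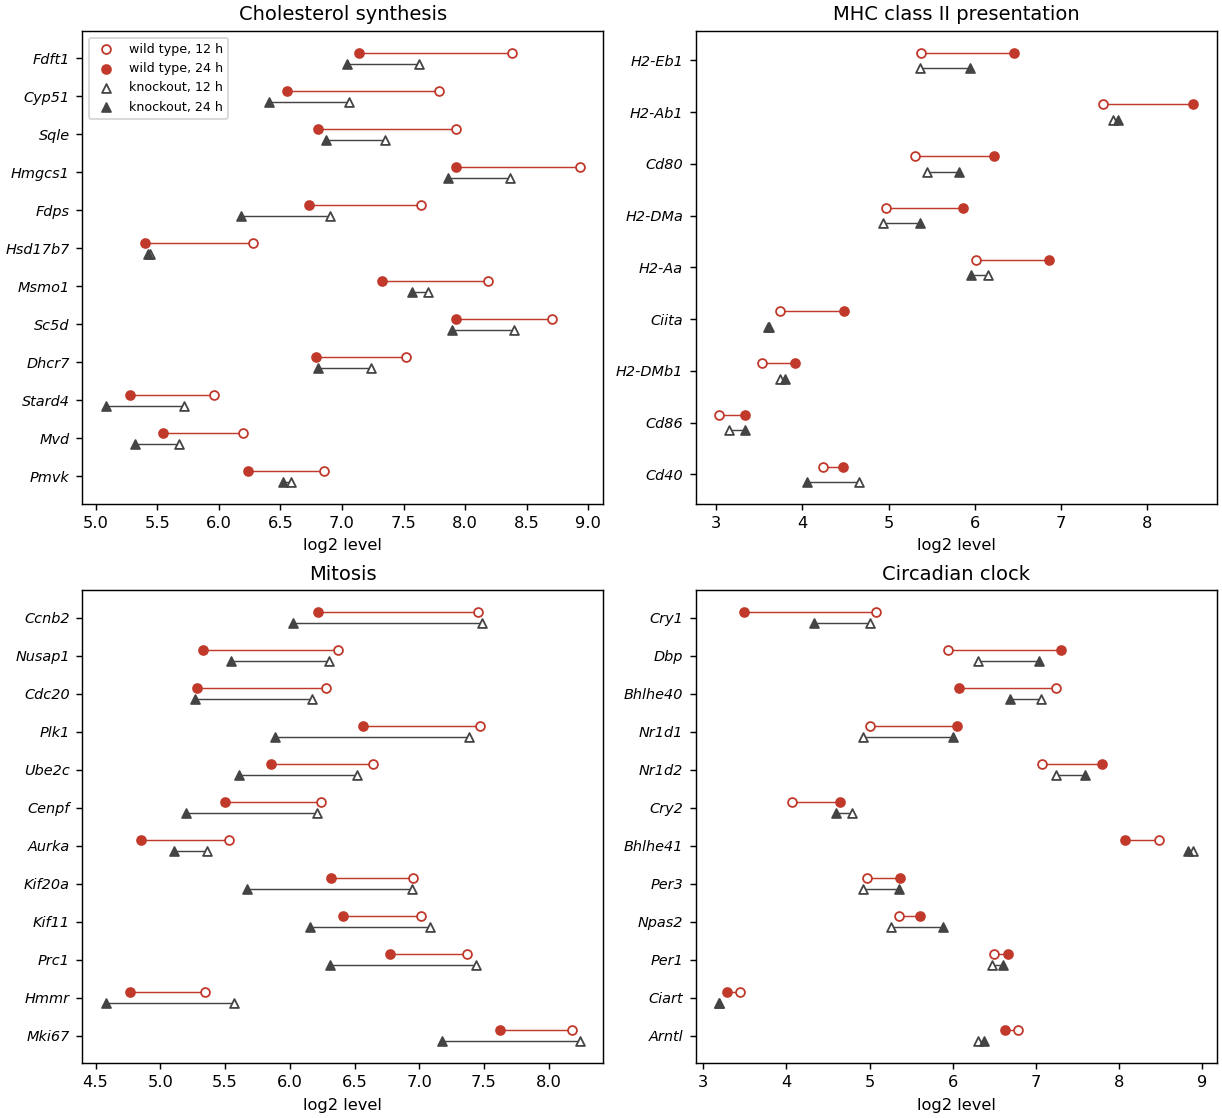
Log2 level on each of the 4 arrays for up to 12 members with the largest wild-type differences in 4 gene lists, with a line joining the arrays of a genotype. In the MHC class II list wild type at 24 h is the highest array for 8 of 9 genes, and in cholesterol synthesis wild type at 12 h is the highest for all 12 genes drawn.

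The knockout arrays gave a time difference that shares no array with the wild-type one. There 407 genes (3.05%) were higher and 433 (3.24%) lower at 24 h. Both genotypes had 177 genes (1.33%) higher, which is 28.1% of the wild-type list and 43.5% of the knockout list. They had 149 genes (1.12%) lower, which is 27.9% and 34.4%. Of the 631 genes higher in wild type 497, or 78.8%, had a knockout difference above 0, and of the 535 lower ones 424, or 79.3%, had one below 0. Over all genes kept the median knockout difference was 0.0021. The median over the 631 genes was 0.79 in wild type and 0.34 in knockout, and over the 535 genes -0.77 and -0.33. Since these genes were chosen on the wild-type values, their larger size there is fixed in part by the choice.

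**Figure D5:**
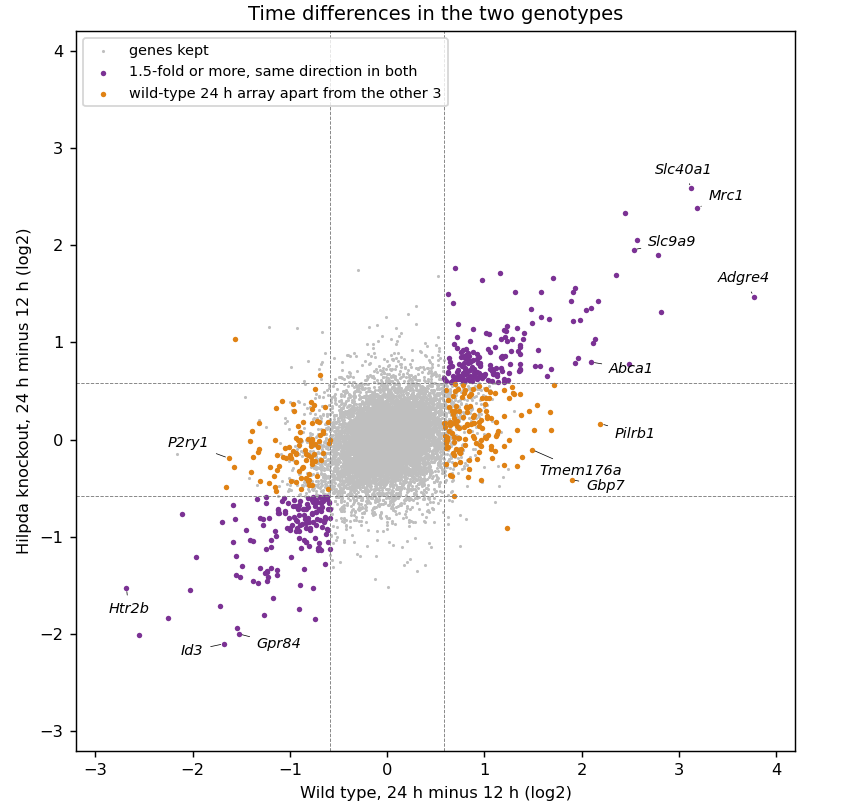
Time difference (log2, 24 h minus 12 h) in knockout (y axis) against wild type (x axis), 1 point a gene over the 13354 genes kept, with lines at 1.5-fold. Purple points, past the lines in the same direction, are 177 genes higher and 149 lower in both, and orange points are further genes for which the wild-type array at 24 h lay 1.5-fold from each of the other 3.

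Some genes had time differences of unequal size or opposite sign in wild type and knockout. By the wild-type minus the knockout time difference, the highest among genes at or above the 60th percentile of level were Adgre4 (2.30), Pilrb1 (2.03), Ms4a4a (1.71), Tmem176a (1.59), Clec4a1 (1.499) and Abca1 (1.298), whose levels are given with their groups. Itga11, a collagen-binding integrin chain of fibroblasts, had 1.27, and Itpkc, an inositol trisphosphate kinase, 1.26. In knockout Adgre4, Clec4a1, Abca1 and Ms4a4a were higher past 1.5-fold too, by 1.47, 1.32, 0.80 and 0.78. Pilrb1 and Tmem176a differed there by 0.17 and -0.10. Adgre4, Pilrb1 and Itga11 reached the 60th percentile only through their levels in wild type at 24 h. At the other end of the contrast, at or above the same percentile of level, were Zfp944 (-1.78), Rab26os (-1.49), Cks2 (-1.47), Arl16 (-1.46), P2ry1 (-1.44), Ppp1r2 (-1.42) and Yae1d1 (-1.40). For Zfp944, Arl16 and Ppp1r2 the knockout difference was itself past 1.5-fold, at 1.11, 0.78 and 0.72. Cks2, a small subunit of cyclin-dependent kinases, measured 6.17 and 5.03 in wild type and 6.10 and 6.42 in knockout. These contrasts use all 4 arrays once and were not tested.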

How the data were processed

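Levels were measured with 1 Affymetrix whole-transcript array a group. The values are log2 levels per probe set, which the authors deposited after RMA, per the submitters' processing notes (no version given). RMA corrects background and equalises the arrays' distributions, so it hides any shift common to all transcripts. The scale was read from the values, 0.627 to 13.2, with array medians of 2.70 to 2.73. The sources used here name no annotation or build. Of 41345 probe sets, 23521 had 1 symbol in the platform annotation and were used, 1814 had several and 16010 were not listed. For 1082 genes with several probe sets the one with the highest mean was taken. Differences were computed with python 3.11.15, pandas 2.3.3 and numpy 2.4.6, with no test, and the steps were tested on simulated data.

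The comparison, the 43 gene lists and the naming rule were chosen with earlier results of these data known. Named by rule were the 15 highest and 15 lowest differences at or above the 60th percentile of level (4.20), the 5 highest and 5 lowest below it, and list members past 1.5-fold, largest in size or first in their list. So were the 10 highest and 10 lowest shared by both genotypes, the 10 highest and 10 lowest contrasts between genotypes at or above the 60th percentile, Hilpda, Actb and Gapdh. Clones, predicted genes, pseudogenes and small RNAs were passed over. Further list members serve as examples picked with their values in view. Promoters came from a RefSeq table of build GRCm38.p6, matched by symbol.

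The alternatives changed the level filter (none, or the 60th percentile), the fold (1.3 or 2), the scaling (median centring, quantiles, or loess with span 0.3 in statsmodels 0.14.6) or took the mean over probe sets. Counts without stromal markers, and with both wild-type arrays at the filter, were added after seeing the data.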

Additional observations from a re-analysis of the deposited data

Results flagged for a closer look

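Among the named genes 4 had time differences past 1.5-fold that ran in opposite directions in wild type and knockout, each on 1 array a side. The difference between the genotypes was not tested for any of them. Zfp944, a zinc finger gene, measured 5.42 at 12 h and 4.75 at 24 h in wild type and 4.15 and 5.25 in knockout, so the wild-type difference was -0.67 and the knockout one 1.11. Arl16, a small GTPase of the ARF family, had -0.68 in wild type and 0.78 in knockout. Ppp1r2, an inhibitor of protein phosphatase 1, had -0.70 and 0.72. Phgdh, the first enzyme of serine synthesis, measured 2.76 and 3.43 in wild type and 3.14 and 2.502 in knockout, differences of 0.67 and -0.64, at levels close to the level filter of 2.44. Of all genes past 1.5-fold in wild type, 9 higher ones and 13 lower ones were past it the other way in knockout.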

How the results depend on the processing

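No list median of 0.1 or more in size changed sign. The number of genes past the fold followed the rule for it: at 1.3-fold 1386 were higher and 1342 lower in wild type, with 448 and 407 shared with knockout, and at 2-fold 150 and 110, with 39 and 32 shared. At the 60th percentile of level the counts were 346 and 352. With no level filter the list medians moved to 0.15 for inflammatory cytokines (-0.02 as reported), 0.29 for alternative activation, 1.08 for MS4A and TMEM176 proteins, 0.72 for C-type lectins, 0.69 for MHC class II, -0.24 for VEGF and TGF-beta signalling, 0.039 for guanylate-binding proteins and 0.68 for stromal markers. At the 60th percentile they were 0.088 for inflammatory cytokines, 0.38 for alternative activation, 0.48 for C-type lectins, 0.021 for chemokine and purinergic receptors, 0.33 for matrix metalloproteinases and -0.055 for VEGF and TGF-beta signalling, and -0.61 for the smell receptors. These settings change which members are counted. With the mean over probe sets the stromal median was 0.68. All other counts stayed within 1.5 times and all other medians within 0.1 of the reported ones under the alternatives run, lists with under 3 members left apart. Of 301 named genes 5 moved with the mean over probe sets: Ighm (0.53), Socs3 (0.48), Bcl2 (-0.45), Tmeff1 (-0.83) and Yae1d1 (-0.72). None of the 301 moved with median centring, quantile normalization or loess.

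No paired analysis was possible because each group is 1 array and the labels carry no replicate numbers, and for the same reason no replicate could be left out. With 1 array a group no error is known. Dim genes carry the least weight, since 5.04% of all smell receptor genes and 17.98% of the 89 kept also passed 1.5-fold. Pooling of 3 samples hides the spread between cultures.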

Other observations

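Energy metabolism genes lay slightly below their 12 h levels in wild type. Of 28 HIF targets and glycolysis genes, 22 had a difference below 0, and the median was -0.16 in wild type and -0.15 in knockout. The members past 1.5-fold were higher: Adm, the vasodilator adrenomedullin, measured 2.75 and 4.46 in wild type and 2.15 and 3.81 in knockout, and Ddit4, an inhibitor of mTORC1, measured 3.89 and 4.58 against 3.37 and 3.97. Hk2 and Pfkp, enzymes of the first steps of glycolysis, differed by -0.53 and -0.50. Of 34 subunits of oxidative phosphorylation 30 were below 0 with a median of -0.12, and Cox7b, a subunit of cytochrome oxidase, differed by -0.94. Among 10 reference genes 7 were below 0, with a median of -0.06, and Actb and Gapdh differed by -0.03 and -0.21.

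Lysosome genes had 1 of 26 past the fold, the protease Ctsk at -0.76, and a median of -0.05, and autophagy genes had 0 of 15 and 0.06. Of 8 osteoclast markers kept, 2 were lower, Ctsk and Acp5 (-0.62), and Dcstamp, a fusion protein, was higher by 0.95. Of 11 matrix metalloproteinases and inhibitors 2 were higher and Mmp8, the neutrophil collagenase, was lower by 1.13 in wild type and 1.34 in knockout. Among immediate early factors, Ier3 and the phosphatase Dusp5 were higher by 1.11 and 0.78, and Egr2 differed by -0.75. In the p53 and BCL2 list, Bcl2a1a and Sesn1 were higher by 1.14 and 0.71, and Bcl2 was lower by 0.93 on its brightest probe set and by 0.45 over the mean of its probe sets. Bcl2a1a measured 2.96 and 4.10 in wild type and 4.37 and 5.05 in knockout, so its wild-type array at 12 h was the lowest, and both knockout arrays lay above wild type at 24 h. Of 5 lymphoid and dendritic markers kept, Xcr1 was higher by 0.61.

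Among dimmer genes, Ogn measured 2.67 at 12 h and 4.81 at 24 h in wild type and 2.21 and 3.25 in knockout. Slc7a4, Tma16 and Hus1b were lower by 1.42, 1.38 and 1.21 in wild type, while Tma16 differed by 0.09 in knockout. Nme1, a nucleoside diphosphate kinase, measured 6.17 and 4.93 in wild type and 5.35 and 5.48 in knockout. Gstp1, a glutathione transferase, measured 7.06 and 7.05 in wild type and 6.42 and 7.68 in knockout, so its contrast between the genotypes came from the knockout arrays.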
